A study of Mus musculus with 16 samples.

Results

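The 8 endothelial cell junction genes Cdh5, Ctnnb1, Cldn5, Tjp1, Jam3, Esam, Pecam1 and Robo4 were taken by symbol from a table of 15895 genes, and all 8 were found and passed the filter on low values. The RNA came from cardiac lymphatic endothelial cells of CD1 mice, sorted for CD31 and podoplanin and against CD45. Surgery, either a sham procedure or a myocardial infarction (MI), took place on postnatal day 1 (P1) or day 56 (P56), and cells were taken 3 days later. That gives 4 groups of 4 libraries, called sham P1 and MI P1 for neonatal surgery, and sham P56 and MI P56 for adult surgery. No group carried a transgene or a deleted gene. Neonatal ventricles were pooled in sets of 6, minced and digested in stirrers, while the adult hearts, all male, were perfused with the enzyme, so age cannot be told apart from sex, pooling and digestion. Pecam1 encodes CD31 and was therefore a gene of the sort itself. The labels do not say how the animals or pools behind the libraries of a group relate, and the p-values measure the spread between these libraries only.

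Endothelial cells hold together through adherens junctions, built on VE-cadherin (Cdh5) and the beta-catenin (Ctnnb1) bound to its tail, and through tight junctions, built on claudins such as claudin-5 (Cldn5), on adhesion proteins of the immunoglobulin family such as JAM-C (Jam3) and ESAM (Esam), and on the scaffold ZO-1 (Tjp1). PECAM-1 (Pecam1) joins endothelial cells outside these complexes, and ROBO4 (Robo4) is an endothelial receptor known for holding the vascular barrier stable. In lymphatic vessels, initial capillaries are known for discontinuous, button-like junctions that let fluid in, and collecting vessels for continuous, zipper-like ones, and VE-cadherin, claudin-5 and ESAM have been described in both.

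The files place Cdh5 (ENSMUSG00000031871) on chromosome 8 from 104101625 to 104144511, Cldn5 (ENSMUSG00000041378) on chromosome 16 from 18776847 to 18778260, Pecam1 (ENSMUSG00000020717) on chromosome 11 from 106654217 to 106750628 and Tjp1 (ENSMUSG00000030516) on chromosome 7 from 65296165 to 65527781, in the build mm10 (GRCm38). The other 4 members lie on chromosome 9: Jam3 (ENSMUSG00000031990) from 27097384 to 27155421, Robo4 (ENSMUSG00000032125) from 37401897 to 37415115, Esam (ENSMUSG00000001946) from 37528078 to 37538319 and Ctnnb1 (ENSMUSG00000006932) from 120929216 to 120960507. Robo4 and Esam are near neighbours, on the same strand and 113 kb apart, with the protein-coding genes Robo3 and Msantd2 between them. Jam3 shares 36.2% of its exon bases with the antisense gene Gm48796, and Ctnnb1 shares 14.6% with Ulk4 on the other strand. Since the strandedness of the counting is not given in the sources used here, reads from these stretches cannot be told apart, and Jam3 is uncertain because its own level was low.

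Promoter sequences from RefSeq (GRCm38.p6) matched 4 of the 8 members, Cldn5, Tjp1, Ctnnb1 and Robo4. Those of Robo4, Cldn5 and Ctnnb1 are shown because the members differ most there in CG dinucleotides, written in capitals, from the endothelial receptor to the widely used catenin. The windows are bases before a RefSeq start, on the plus strand, at chr9:37401722-37401896 (cut short where a GENCODE exon of Robo4 begins), chr16:18776597-18776846 and chr9:120933150-120933399. The last lies inside Ctnnb1 as the files place it, since the gene there begins at 120929216.
Robo4: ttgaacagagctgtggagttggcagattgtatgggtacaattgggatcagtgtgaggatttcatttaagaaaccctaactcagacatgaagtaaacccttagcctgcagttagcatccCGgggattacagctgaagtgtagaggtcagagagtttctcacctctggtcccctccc
Cldn5: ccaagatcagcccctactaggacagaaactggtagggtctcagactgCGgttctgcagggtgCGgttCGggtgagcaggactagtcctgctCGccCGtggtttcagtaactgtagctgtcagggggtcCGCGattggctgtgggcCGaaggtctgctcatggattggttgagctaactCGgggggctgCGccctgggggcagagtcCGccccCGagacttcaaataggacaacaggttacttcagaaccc
Ctnnb1: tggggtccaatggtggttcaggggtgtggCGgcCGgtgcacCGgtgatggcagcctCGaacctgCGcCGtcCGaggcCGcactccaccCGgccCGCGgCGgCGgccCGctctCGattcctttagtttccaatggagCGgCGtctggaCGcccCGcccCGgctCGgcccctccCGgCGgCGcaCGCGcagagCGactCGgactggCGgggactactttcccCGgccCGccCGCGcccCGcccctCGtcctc
Over the full 250 bases upstream, Robo4 had 2 CG dinucleotides, Cldn5 12, Tjp1 22 and Ctnnb1 35, against a median of 6 and quartiles of 2 and 16 over 32851 promoter entries. Ctnnb1 has a second, overlapping entry at chr9:120933328-120933577, with 43 CG dinucleotides and 2 GC boxes. Its other counts given here are those of the entry shown. The letters GGAAG, the core bound by ETS factors, or CTTCC on the other strand occurred at 2 places in the full 250 bases of Robo4, 0 of them in the 175 bases shown, and at 1 place in those of Tjp1, and 64.1% of all promoter entries hold at least 1. The GC box GGGCGG, searched on both strands, occurred 1 time in Cldn5, 2 times in Tjp1 and 3 times in Ctnnb1, and 32.7% of all entries hold it. Robo4 held none, and none of the 4 held the forkhead letters TGTTTAC on either strand, which 3.17% of entries hold.

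Of the 16 libraries, 13 entered the tests: at P1, 2 of sham and 4 of infarcted hearts, and at P56, 4 and 3. They had 17103319 to 26904599 reads on the listed genes, of which 6709566 to 12918569 were on genes other than Uqcrc1 and the mitochondrial ribosomal RNAs, and with a read on 14121 to 15821 genes. The other 3, sham P1 libraries 1 and 2 and MI P56 library 5, had a read on 9451, 7939 and 7746 genes. Uqcrc1 held 18.1, 98.6 and 99.8% of their reads. Among the 13 it held 47.3% in sham P1 library 5 and 0.093 to 4.11% in the others. In sham P1 library 2 and MI P56 library 5, 3 reads were worth a value of 12.1 and 12.9, above most values of Cldn5, Esam and Jam3. That does not hold for sham P1 library 1, where 3 reads were worth 0.359. It had 6376296 reads on the other genes, beside 6709566 in sham P1 library 5, which was kept. Sham P1 library 1 was left out only for its low number of genes with a read. Each result below is from the 13 libraries, with the fit on all 16 named where it changes a call of a member or of another gene named outside the markers. Calls of marker genes are given for the 13 libraries alone. Sham P56 library 2 had the fewest genes of the 13, was the highest of its group for Jam3 and the lowest for Robo4, Ctnnb1, Cdh5, Cldn5 and Pecam1. Lymphatic markers were present in these 13 libraries: the summed value of 6 (Prox1, Lyve1, Flt4, Pdpn, Reln and Mmrn1) was 979 to 3065, with no marker at 0 in every library of a group. Pdpn encodes podoplanin and was therefore a gene of the sort itself. Ccl21a, also on the list of markers, was not among the genes with values. Markers of other cells were also present, with summed values of 85.8 to 2230 for 8 cardiomyocyte genes and 610 to 6249 for 7 fibroblast genes.

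Values are the deposited CPM (reads scaled to library size) with the trimmed-mean (TMM) scaling of edgeR; levels are compared between genes only after division by exon length in kilobases. On that scale Cdh5 was the highest member, with group means of 23.2 to 43.6 per kb, in percentile 99.3 of 12610 protein-coding genes. Pecam1 (means of 15.8 to 22.7 per kb) and Tjp1 (13.7 to 19.3) came next, with overlapping libraries in every group, followed by Ctnnb1 (8.19 to 13.7). Cldn5 (3.62 to 6.84 per kb) and Robo4 (2.47 to 4.77) were lower still, and their order turned between sham P1 and sham P56, though their libraries overlapped in the latter. Esam had 0.776 to 3.55 per kb and Jam3 0.434 to 1.09, the lowest member, in percentile 35.7. The plot of levels per exon length shows that this order was largely kept across the 4 groups.

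**Figure D1:**
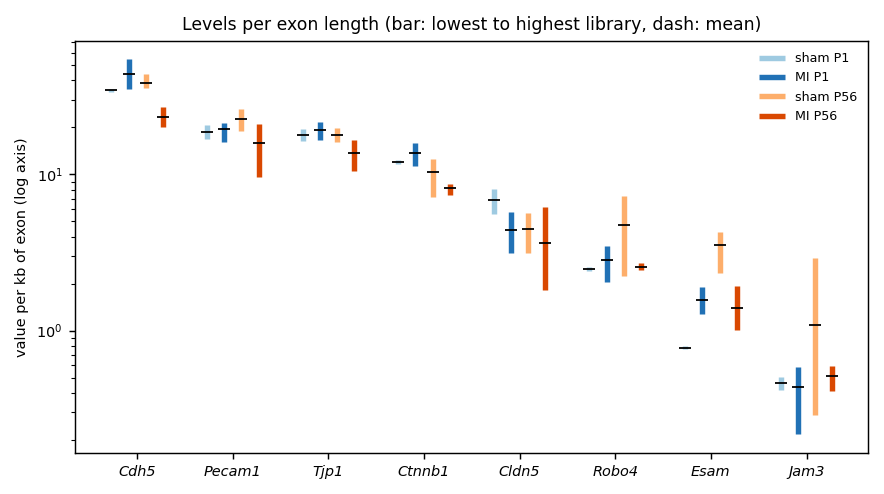
Level of each member per kilobase of exon on a log axis, with a bar from the lowest to the highest of the 13 libraries in each group and a dash at the mean. By mean, Cdh5 stands highest and Jam3 lowest in each group, and the bars of Pecam1 and Tjp1 overlap in all 4 groups.

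After infarction at P56, the transcripts of VE-cadherin and ESAM were lower in the sorted adult cells 3 days later. Cdh5 fell 1.66-fold and Esam 2.54-fold by the ratio of group means, and the libraries of both groups did not overlap. The other 6 members had lower means after MI but did not pass the test. In all, 2 of 8 members were called at a Benjamini-Hochberg adjusted p under 0.05 in limma, both lower, against 3.42% of the 13033 genes tested in either direction, and the groups did not overlap for 2 of 8 in the lower direction, against 5.79% of genes. The median log2 change of the 8 members was -0.51, beside 0.01 for all genes tested.

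Among the adherens junction genes, Cdh5 had values of 161, 149, 151 and 185 in sham P56 libraries 1, 2, 3 and 5 and of 113, 95.3 and 83.9 in MI P56 libraries 1, 2 and 3. Each MI library lay under each sham library, with means of 161 ± 16.5 (SD, n = 4) and 97.3 ± 14.6 (SD, n = 3). The change on the log2(value + 1) scale was -0.73 ± 0.20 (SE), with a 95% interval of -1.14 to -0.32 and an adjusted p of 0.0447 in limma. That value lies close to the threshold, and the call was lost when any of 10 of the 13 libraries was left out, with a limma adjusted p between 0.0507 (without MI P1 library 1) and 0.222 (without MI P56 library 3), and was kept without MI P1 library 5, sham P56 library 2 or MI P56 library 1. With all 16 libraries the change was -0.72 with an adjusted p of 0.882, and in MI P56 library 5 the value of 99.2 rested on 23 reads. Cdh5 kept its call in 6 of 13 other settings; among those that lost it were edgeR (adjusted p = 0.0658), no filter, quantile normalization, only the groups compared (0.116) and 16 libraries with weights.

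Ctnnb1, which also carries Wnt signals into the nucleus, had 64.9, 37.1, 55.4 and 58.8 in sham P56 and 45.1, 38.4 and 44.1 in MI P56. The groups overlapped through sham P56 library 2, the lowest of the 7, and the change was -0.31 ± 0.22 (SE; limma adjusted p = 0.491). Of the 16 adherens junction genes tested, which include Cdh5 and Ctnnb1, Cdh5 alone was called, and the list's median change was -0.10. Ctnna1, the alpha-catenin that links the complex to actin, had means of 119 and 94.4 without passing the test.

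Among the tight junction genes and their immunoglobulin partners, Esam had values of 6.75, 11.6, 10.1 and 12.2 in sham P56 and of 5.54, 3.58 and 2.88 in MI P56. All 3 MI libraries were below all 4 sham libraries, with means of 10.2 ± 2.46 (SD, n = 4) and 4.00 ± 1.38 (SD, n = 3), and 166 to 720 reads behind each value. The change was -1.16 ± 0.31 (SE) on the log2(value + 1) scale, with a 95% interval of -1.81 to -0.52 and an adjusted p of 0.0414 in limma. As for Cdh5, the call was lost without any of 10 libraries, with adjusted p from 0.0501 (without MI P1 library 3) to 0.22 (without MI P56 library 3), and kept without sham P56 library 1, sham P56 library 2 or MI P56 library 1. With all 16 libraries the change was -1.13 with a limma adjusted p of 0.62. Esam kept its call in 9 of 13 other settings and lost it, among others, with edgeR (adjusted p = 0.0605) and with only the groups compared (0.14).

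Tjp1, the scaffold that ties tight junction proteins to actin, had 149, 127, 126 and 155 in sham P56 and 129.9, 109.6 and 82.6 in MI P56. Cldn5, the main claudin of endothelium, had 7.98, 4.45, 5.41 and 7.52 in sham P56 and 8.76, 4.03 and 2.59 in MI P56. Both overlapped between groups, with changes of -0.39 ± 0.20 for Tjp1 and -0.36 ± 0.35 for Cldn5 (SE; limma adjusted p = 0.329 and 0.649). Jam3 had 0.919, 9.39, 1.77 and 1.89 in sham P56 and 1.69, 1.32 and 1.91 in MI P56, so that its sham mean of 3.49 ± 3.96 (SD, n = 4) rested on library 2, where 363 reads lay on Jam3 and 0 on the antisense Gm48796. Its change of -0.44 ± 0.44 (SE; limma adjusted p = 0.665) became 0.08 without that library. Of the 16 tight junction genes tested, 0 were called by limma in this comparison, and their median change was -0.37.

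Pecam1 had 164, 118, 131 and 151 in sham P56 and 130.3, 105 and 59.9 in MI P56, with overlapping groups and a change of -0.58 ± 0.24 (SE; limma adjusted p = 0.205). Robo4 had 25.2, 11.8, 25.6 and 38.5 in sham P56 and 13.4, 14.5 and 12.9 in MI P56. The MI libraries were close together, and sham library 2 was the single sham library below them. The change of Robo4 was -0.74 ± 0.30 (SE; limma adjusted p = 0.204), and it became -1.05 with an adjusted p of 0.0113 when sham P56 library 2 was left out. Of its relatives in the list of Slit ligands and Robo receptors, 0 of 9 genes tested, Robo4 included, were called by limma after MI at P56, with a median change of 0.76.

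**Figure D2:**
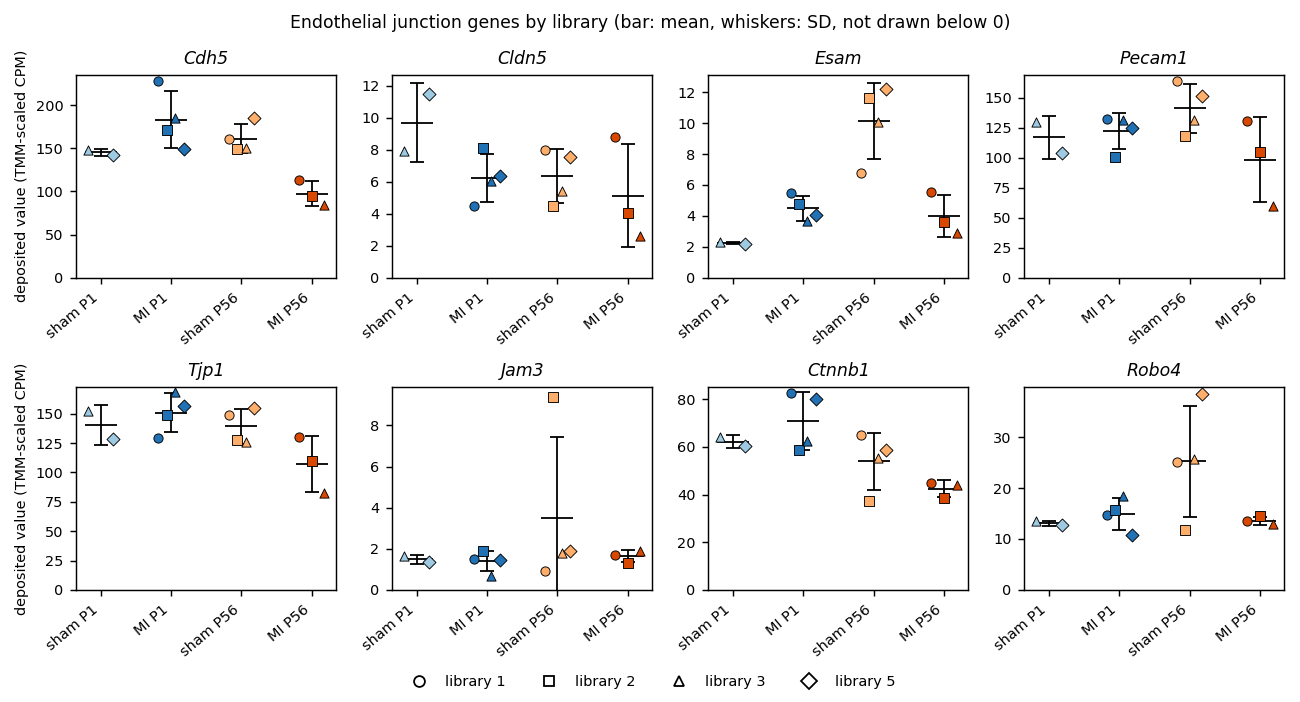
Value of each member in each of the 13 libraries, in TMM-scaled CPM from 0, by group, with the mean and SD; the symbol gives the library number. The MI P56 libraries of Cdh5 (83.9 to 113) and Esam (2.88 to 5.54) lie under all sham P56 libraries, and sham P56 library 2 stands at 9.39 for Jam3.

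Other cell contents of the sort moved between the same groups. The summed value of 11 blood endothelial markers, Cldn5 left out, was 530.3 to 918 in sham P56 and 208 to 435 in MI P56, and 3 of the 12 listed were called, all lower (Cd36, Fabp4 and Aqp1). The 8 cardiomyocyte markers summed to 1214 to 2230 and 305 to 544, with 7 of 8 called, all lower (Myh6 changed by -2.46 and Mb by -2.42). The 7 fibroblast markers summed to 609.7 to 2772 and 2972 to 6249, with 3 called, all higher (Col1a1, Col3a1 and Postn), and the leukocyte markers to 5.35 to 9.19 and 16.6 to 85.4, with 2 of 6 called, both higher (Itgam and Cd68) and with Cd3e at 0 in all sham P56 libraries. Of 6 pericyte and smooth muscle markers, Rgs5 and Abcc9 were called lower and Acta2 higher, while the lymphatic markers summed to 1735 to 3065 and 979 to 2344 with 0 of 6 called. Mesothelial and platelet markers had 0 called. The part of these cells in the changes of Cdh5 and Esam was not tested, and in such bulk samples fewer cells of a type and less RNA per cell cannot be told apart.

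Of the genes that regulate endothelial junctions, 4 of 26 tested were called after MI at P56, all lower, with a list median of -0.14. Kdr, the receptor VEGFR2 that acts beside VE-cadherin, fell from 136 ± 17.3 (SD, n = 4) to 58.4 ± 14.5 (SD, n = 3), a log2 change of -1.23 (limma adjusted p = 0.0036), and it stayed called whichever library was left out. Arhgef15 fell from 44.5 to 21.6 (limma adjusted p = 0.0186) and was lost without sham P56 library 5, MI P56 library 1 or MI P56 library 3, with an adjusted p of up to 0.0849. The angiopoietin receptor Tek fell from 74.9 to 42.6 (-0.80) and its partner Tie1 from 32.4 to 18.3 (-0.80), with limma adjusted p of 0.0304 and 0.0469. Tek kept its call in 8 of 13 fits with a library left out (lost without sham P56 libraries 1 and 5 or any MI P56 library) and Tie1 in 1 of 13 (kept without sham P56 library 2 alone), with adjusted p up to 0.178 and 0.191.

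In other lists, the desmosomal linker Dsp, also abundant in cardiomyocytes, fell from 24.1 ± 8.82 (SD, n = 4) to 4.83 ± 1.57 (SD, n = 3), a log2 change of -2.07 (limma adjusted p = 0.00347), as 1 of 4 desmosome genes tested, beside the fall of the cardiomyocyte markers given above. The part of these cells in the change of Dsp was not tested. Mmrn2, an endothelial matrix protein, fell from 38.1 to 17.6 (-1.05), and with Tek and Tie1 made 3 of 17 other pan-endothelial genes called, all lower. Without sham P56 libraries 3 or 5 or MI P56 libraries 2 or 3, Mmrn2 was not called, with an adjusted p of up to 0.135. Gata2, a transcription factor of lymphatic valves, fell from 11.8 to 3.36 (-1.38) as 1 of 18 endothelial transcription factors, and kept its call in 2 of 13 fits with a library left out, with an adjusted p of up to 0.153. Of 6 gap junction genes and 15 beta-catenin and Wnt genes, 0 were called by limma. With all 16 libraries, 0 of the 7 genes named here outside the members were called. At an unadjusted p under 0.05, 4 of the 8 members and 17.1% of all genes passed in this comparison.

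After infarction at P1 most members had a positive change, and none was called. Of the 8 members, 6 had a positive and 2 a negative change, while 47.8% of all genes had a negative one. The median of the members was 0.13, beside 0.02 for all genes. By limma 0 of 8 members and 0% of all genes were called, by edgeR 0 members and 0 genes and by DESeq2 0 members and 7 genes, and 1 member and 485 genes had an unadjusted p under 0.05 in limma. The sham P1 group held 2 libraries, which limits what this comparison could show. Esam had 2.28 and 2.17 in sham P1 libraries 3 and 5 and 5.46, 4.75, 3.64 and 4.07 in MI P1, all 4 above both sham libraries, a change of 0.75 ± 0.35 (SE) with a limma adjusted p of 1.00. Cdh5 had 148 and 142 in sham P1 and 228, 172, 185 and 149 in MI P1, again without overlap, and a change of 0.32 ± 0.22 (SE). Its nearest libraries were 148.8 (MI P1 library 5) and 148.3 (sham P1 library 3). Groups that did not overlap in the higher direction made up 8.89% of all genes, beside these 2 of 8 members.

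The remaining members overlapped between sham and MI at P1. Ctnnb1 had 64.2 and 60.4 in sham P1 and 82.5, 58.7, 62.5 and 80.0 in MI P1. Tjp1 had 152 and 128 against 129, 149, 169 and 157. Pecam1 had 129.7 and 104 against 132, 101, 131 and 124. These 3 changed by 0.17, 0.10 and 0.06 on the log2 scale, less than their standard errors of 0.24, 0.22 and 0.27. Robo4 had 13.5 and 12.7 in sham P1 and 14.7, 15.6, 18.5 and 10.9 in MI P1, Cldn5 had 7.93 and 11.4 against 4.46, 8.10, 6.06 and 6.37, and Jam3 had 1.62 and 1.34 against 1.51, 1.87, 0.698 and 1.47. Cldn5 gave the most negative change of the 8, -0.56 ± 0.39 (SE). With all 16 libraries, sham P1 library 2 holds a Cdh5 value of 7758 (1921 reads) and sham P1 library 1 one of 402 (3361 reads). Both lie above every MI P1 library, so the separation of Cdh5 at P1 rests on leaving them out. The change of Cdh5 at P1 with all 16 libraries was -1.48 ± 0.76 (SE; limma adjusted p = 0.419), the opposite sign. In none of the lists of junction, regulatory or marker genes was a gene called by limma at P1.

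The difference between the responses at both ages was tested directly as an interaction. Esam gave -1.92 ± 0.47 (SE; 95% interval -2.89 to -0.94) with a limma adjusted p of 0.0743, and Cdh5 -1.05 ± 0.30 (SE; -1.66 to -0.43) with 0.132, so neither passed. They ranked 103 and 215 by p among all genes. In limma 0 of 8 members were called, against 0.483% of genes, 2 of 8 had an unadjusted p under 0.05 (10.9% of genes), and edgeR called 0 and DESeq2 2 (Esam at 0.00238 and Cdh5 at 0.0325). Without sham P56 library 2, Esam passed with an adjusted p of 0.0351. Robo4 gave -0.89 ± 0.46 (SE; limma adjusted p = 0.501), and the other 5 lay between -0.64 (Pecam1) and 0.21 (Cldn5). Of the other junction lists, Dsp alone was called (-2.97, limma adjusted p = 0.0305), and its call was lost without sham P1 library 3 or 5, MI P1 library 1 or 3 or MI P56 library 3, with an adjusted p of up to 0.231. With all 16 libraries Dsp was not called by limma, and 1 of all 13243 genes tested was. Among the markers of other cells, Flt1 (-2.64), Myh6 (-3.13), Tnni3 (-2.61) and Abcc9 (-2.54) were called lower in the 13 libraries, and Postn (4.02) and Cd68 (3.10) higher. The part of these markers in the values of the members was not tested.

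**Figure D3:**
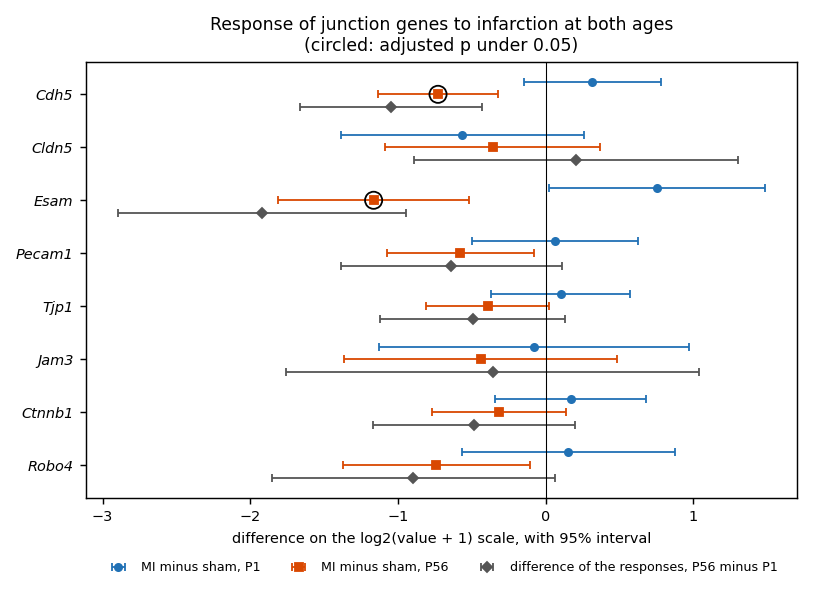
Change of each member after MI at P1 and at P56 and the difference between both responses, on the log2(value + 1) scale with 95% intervals; circles mark adjusted p under 0.05. All 8 changes at P56 lie left of 0, with Cdh5 (-0.73) and Esam (-1.16) circled, and none is circled at P1 or for the difference.

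Between sham groups of both ages, Esam was the 1 member called. It rose from 2.28 and 2.17 in sham P1 to between 6.75 and 12.2 in sham P56, 4.57-fold by the means of 2.23 ± 0.0739 (SD, n = 2) and 10.2 ± 2.46 (SD, n = 4). On the log2 scale this was a change of 1.76 ± 0.35 (SE), with a limma adjusted p of 0.00193, and it kept its call whichever of the 13 libraries was left out and with all 16 (adjusted p = 0.0354). Sham P1 libraries 1 and 2, which the fit on all 16 adds, held 0 and 1 reads on Esam, so that fit is no further support. In the 13 libraries 1 of 8 members was called by limma, near the share of 13.2% of genes in either direction. Robo4 had 13.5 and 12.7 in sham P1 and a mean of 25.3 ± 10.9 (SD, n = 4) in sham P56, a change of 0.79 ± 0.34 (SE; limma adjusted p = 0.144), which passed with 1.10 and 0.00597 without sham P56 library 2. Cdh5 was the second member without overlap, higher at P56 by 0.14 ± 0.22 (SE), less than its standard error, and groups without overlap in either direction made up 33.0% of all genes. The 5 others had adjusted p between 0.399 (Cldn5) and 0.985 (Tjp1).

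Esam stood among related genes that moved both ways with age in sham hearts. Jam2, which encodes the tight junction protein JAM-B, rose from 13.9 ± 3.15 (SD, n = 2) to 83.0 ± 34.6 (SD, n = 4), a log2 change of 2.39 (limma adjusted p = 0.000242), while Pvr, a nectin-like adhesion receptor, fell by 1.77 (0.0408); Esam, Jam2 and Pvr were the 3 of 11 junctional immunoglobulin genes called. Pvr kept its call in 5 of 13 fits with a library left out (adjusted p up to 0.26) and Jam2 in all 13. Cldn11 fell from 2.72 ± 2.62 (SD, n = 2) to 0.108 ± 0.107 (SD, n = 4) and did not pass without sham P1 library 3 (adjusted p = 0.319), and the connexin Gja1 fell from 75.8 to 37.3 and kept its call in 7 of 13 fits (adjusted p up to 0.298).

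Of the junction regulators, 3 rose with age in sham hearts, Arhgef15 from 10.8 to 44.5, the sphingosine-1-phosphate receptor S1pr1 from 22.1 to 59.8 and the VE-cadherin phosphatase Ptprb from 129 to 286, and the kinase Src fell from 2.04 to 0.359. Without sham P1 library 5, S1pr1 (adjusted p = 0.186) and Ptprb (0.143) were not called, and Src kept its call in 4 of 13 fits. Of the 9 Slit and Robo genes, Robo1 (-2.18), Robo2 (-1.53) and the ligand Slit2 (-1.51) fell. Robo1 did not pass without sham P1 library 5 (adjusted p = 0.234), Slit2 without sham P1 library 3 or 5 or sham P56 library 5 (up to 0.214), and Robo2 in 5 of 13 fits (up to 0.451). Among 18 endothelial transcription factors 4 rose and 1 fell, with Sox17 (1.93), Sox18 (1.40), Ets1 (1.04) and Klf4 (-1.09) the largest; without sham P1 library 5, Sox17, Sox18 and Ets1 were not called (adjusted p up to 0.23), nor were Sox18 and Klf4 without sham P1 library 3 (Klf4 at 0.104). Of 17 other pan-endothelial genes 5 rose, Mmrn2 (1.65), Emcn (1.44) and the adrenomedullin receptor Calcrl among them; Calcrl rose from 106 to 224 (limma adjusted p = 0.0412) and kept its call in 6 of 13 fits (adjusted p up to 0.301). Dsp rose by 2.72. With all 16 libraries, 7 of the 19 genes named here outside the members were called (Cldn11, Jam2, Dsp, Arhgef15, S1pr1, Sox17 and Mmrn2). Beside these, all 8 cardiomyocyte markers rose (sums of 139.9 to 204 in sham P1) and 8 of 12 blood endothelial markers rose (sums of 130.3 to 156 in sham P1), 3 pericyte markers rose, and 3 fibroblast and 2 leukocyte markers fell, and their part in the change of Esam was not tested.

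Between MI groups of both ages, Cdh5 was the 1 member called. MI P1 libraries had 149 to 228 and MI P56 libraries 83.9 to 113, a 1.88-fold lower mean at P56, with a log2 change of -0.90 ± 0.20 (SE; limma adjusted p = 0.00948). The call held whichever library was left out (adjusted p up to 0.0496) but not with all 16 libraries (-0.89, adjusted p = 0.978). Ctnnb1 was also lower in every MI P56 library than in any MI P1 library, 38.4 to 45.1 against 58.7 to 82.5, with a change of -0.71 ± 0.22 (SE; limma adjusted p = 0.0616), and without sham P56 library 2 its adjusted p was 0.0129. In all, 1 of 8 members was called, against 5.35% of genes in either direction, and 2 of 8 did not overlap in the lower direction, against 11.2% of genes. Tjp1 changed by -0.50 ± 0.20 (SE; adjusted p = 0.163), and Esam, with means of 4.48 and 4.00, by -0.16 ± 0.31 (SE). The comparisons of age and of MI share the same sham P56 and MI libraries and are not independent of each other.

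Within the same comparison, Cdh13, the T-cadherin that lacks a tail for catenins, fell from 21.7 to 11.8 (-0.83, limma adjusted p = 0.0343) and with Cdh5 made 2 of 16 adherens junction genes called. It kept its call in 6 of 13 fits, lost without any single MI library, with an adjusted p of up to 0.138. Jam2 rose from 17.0 to 55.4 (1.67, adjusted p = 0.00457) and Cldn11 fell from 2.40 to 0.105 (-1.59, 0.00825), and both stayed called whichever library was left out. Cxadr, an adhesion protein of tight junctions, fell from 21.8 to 7.51 (-1.38) and Gja1 from 67.0 to 29.6 (-1.23); the first was lost without MI P1 library 1 or 5 or any MI P56 library (adjusted p up to 0.0867) and the second without MI P56 library 2 or 3 (up to 0.0899). Tie1 fell by 0.80 on the log2 scale, in 8 of 13 fits. Of the transcription factors, the flow-responsive Klf4 fell from 98.4 ± 20.4 (SD, n = 4) to 27.2 ± 3.56 (SD, n = 3), a change of -1.81 (adjusted p = 5.6e-05), and Sox7 fell by 1.25 and was lost without MI P56 library 3 (adjusted p = 0.0669). Cardiomyocyte markers summed to 85.8 to 311 in MI P1 and 305 to 544 in MI P56, with Ttn called higher. Leukocyte markers summed to 13.9 to 41.1 and 16.6 to 85.4, with 1 of 6 called higher and 1 lower. Blood endothelial markers summed to 172 to 301 and 208 to 435 with 0 called. The 1 platelet marker tested (-2.40) and 1 of 5 mesothelial markers were called lower. The part of all these markers in the change of Cdh5 was not tested. With all 16 libraries, 0 of the 8 genes named here outside the members were called.

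How the members varied among libraries of the same group was described by the correlation of deviations from the group mean, over 13 libraries. These libraries differ in depth and in the markers of other cells, also within a group. The part of either in the correlations was not tested. Pecam1 and Tjp1 moved most closely together (r = 0.81), followed by Cldn5 and Tjp1 (0.73), Cdh5 and Pecam1 (0.61), and Cdh5 and Esam (0.56). Jam3 ran against Robo4 (-0.78) and Ctnnb1 (-0.69), and both values rested on sham P56 library 2: without it they were -0.07 and 0.05, and that of Ctnnb1 with Robo4 turned from 0.46 to -0.50. Relative to the mean, Tjp1 varied least over the 13 libraries (coefficient of variation 16.9%) and Jam3 most (105%), with Esam at 59.7%. Without sham P56 library 2, Jam3 was at 25.6% and Esam, at 58.6%, varied most. The genes whose deviations were most like those of Cdh5, among 6115 with a mean value of at least 5, were Peg13 (r = 0.89), Ehd1 (0.88), BC004004 (0.87), Ccdc97 and Mavs (both 0.82), and Mgll, Gpihbp1 and Mcam (all 0.81). Pecam1 ranked 88 and Esam 167 on that measure.

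**Figure D4:**
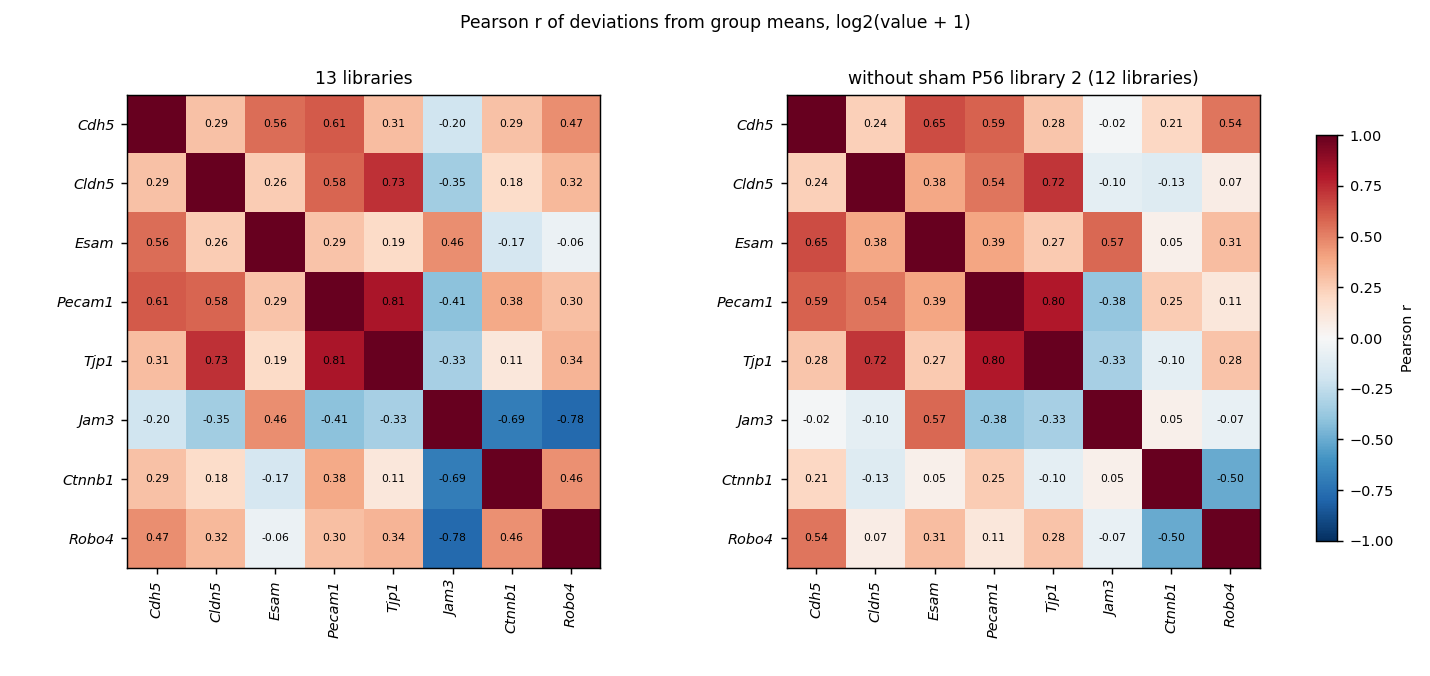
Pearson correlation between members of the deviations of log2(value + 1) from the group mean, over 13 libraries (left) and without sham P56 library 2 (right). Pecam1 and Tjp1 stay close (0.81 and 0.80), whereas the negative values of Jam3 with Robo4 and Ctnnb1 shrink to -0.07 and 0.05.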

How the data were processed

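RNA sequencing libraries of 16 sorted cell samples in 4 groups were used. The submitters' processing notes name the tools Trimmomatic, STAR, HTSeq and edgeR and the build mm10 (GRCm38); versions are not given in the sources used here. The deposited values are a signal per gene, which the authors named CPM; dividing each column by the worth of 1 read gave whole reads for 100% of values (tolerance 0.01), with TMM factors of 0.00565 to 3.36. All 16 value columns were used and 0 left out. Column names give each library's group; those numbered 5 have no label of that number. The design had assumed plain CPM.

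The 13033 genes that reached a value of 1 in 4 or more libraries were fitted as log2(value + 1) with limma-trend (limma 3.58.1, R 4.3.3) over the 4 groups, two-sided, with Benjamini-Hochberg adjustment over all genes and a call at 0.05. Libraries with a read on fewer than 10000 genes (3) were left out. Changes on this scale understate those of low genes. On recovered reads, edgeR 4.0.16 (quasi-likelihood) and DESeq2 1.42.0 were alternatives, and the limma step was tested on simulated data. Coordinates and exon lengths are from the files and GENCODE M21, where 15871 of 15895 identifiers matched. The members, the gene lists and the limit of 10000 genes with a read were chosen with earlier results of these data known. All members are named; of each other list, up to 4 called genes with the largest change, and the 8 genes most correlated with Cdh5 outside predicted genes and pseudogenes. Marker genes of other cells are named or counted where called beside a member. PCR reads are not independent molecules, so read numbers carry counting error only.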

Additional observations from a re-analysis of the deposited data

Results flagged for a closer look

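Jam3 in sham P56 library 2 stood at 9.39 while the other 3 sham P56 libraries had 0.919 to 1.89, a gap that passed Dixon's critical value for 4 samples. Of 16 groups of a member tested this way 1 was picked out, and chance gives about 1 in 20. The same library was the lowest of sham P56 for Robo4 (11.8), Ctnnb1 (37.1), Cdh5 (149), Cldn5 (4.45) and Pecam1 (118).

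For Esam and Cdh5 the MI and sham libraries separated in opposite directions at P56 and at P1, without a call at P1: all MI P56 libraries lay under all sham P56 libraries and all MI P1 libraries above both sham P1 libraries. The left-out sham P1 library 1 had a Cdh5 value of 402 (3361 reads), above all MI P1 libraries. The tested difference was -1.92 for Esam (limma adjusted p = 0.0743) and -1.05 for Cdh5 (0.132), neither past the threshold. Over the alternatives the adjusted p ran from 0.00238 to 0.509 for Esam and from 0.0325 to 0.784 for Cdh5, and with all 16 libraries the difference for Cdh5 was 0.76.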

How the results depend on the processing

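Alternatives were 13 other settings and each of 13 libraries left out in turn. Of 1027 values of single members under them, 981 stayed on their side of the threshold, 32 lost a call and 14 gained one. Of the 981, 27 changed sign without being called in either fit. Of the 2 members called after MI at P56, 0 remained called with all 16 libraries, with edgeR and with only the groups compared. The same held with the replicate block (limma adjusted p of 0.083 for Cdh5 and 0.0921 for Esam). Only Esam remained without a filter, with quantile normalization and with all 16 libraries with weights. In the weighted fit Cdh5 had a limma adjusted p of 0.0862, and Robo4 was added with 0.00895. With 1 library left out the count of members called was 0 to 3 (3 without sham P56 library 2, Robo4 added). For the interaction (0 called), all 16 libraries with weights and DESeq2 gave 2 each, and left-out libraries 0 to 1. For age in sham (1), the weighted fit gave 2 and left-out libraries 1 to 2. For age after MI (1), all 16 libraries gave 0, and the weighted fit, DESeq2, a least value of 5 and only the groups compared gave 2 each, and left-out libraries 1 to 2. The median change of the members moved with all 16 libraries to 0.55 at P1, to -1.17 for the interaction and to 0.92 for age in sham, and the same fit shifted the median of all genes by -0.17 (MI at P56), 0.37 (MI at P1), -0.50 (interaction), 0.36 (age in sham) and -0.19 (age after MI); the cause was not tested. Over 15 pairs of libraries of equal number the correlation of deviations was -0.32 to 0.14, over 0.1 in 1 pair. Over 47 pairs of other numbers it was -0.15 to 0.32. Deviations from means of so few libraries are tied to each other, so these values cannot decide whether equal numbers mark a pair. The 13 settings were run for the other junction genes after their values had been seen. Depth limited Jam3 most, with 28 to 363 reads, and 2 sham P1 libraries limit each comparison with that group.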
